A study of Homo sapiens with 6 samples.

Results

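The axon guidance ligands and receptors are 56 genes of the 15706 in the deposited table, chosen because their symbols belong to the semaphorin, plexin, neuropilin, Eph receptor, ephrin, SLIT, ROBO, netrin or FLRT families. They are 33 ligands (18 semaphorins, 8 ephrins, 3 netrins, 2 SLITs and 2 FLRTs) and 23 receptors (9 plexins, 8 Eph receptors, 4 ROBOs and 2 neuropilins). No member of the UNC5 family had a row among those analysed here. The libraries, 6 in all, hold RNA of the human cell line MDA-MB-231, a model of triple-negative breast cancer with mesenchymal features, with 41240265 to 49514464 recovered reads each. The 3 knockout libraries came from cells given a guide RNA against MLL3 (approved symbol KMT2C), an enzyme that methylates lysine 4 of histone H3, and the 3 control libraries came from cells labelled as wild type that carried a non-targeting guide. All cells grew in DMEM with 10% serum and received no treatment. Both groups number their guides and replicates 1 to 3, while the exon targeted, the sequences of the numbered guides and the clonal or pooled nature of the cells are not stated in the labels. The p-values below measure the spread between these libraries, which the labels call biological replicates.

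Axon guidance cues steer growing axons by attraction and repulsion, and the same molecules act outside the nervous system in vessel growth, cell migration and the sorting of epithelial layers. Secreted class 3 semaphorins signal through a neuropilin and an A-type plexin, other semaphorins bind plexins directly, ephrins on one cell bind Eph receptor tyrosine kinases on the next, and SLIT proteins are cleaved ligands of ROBO receptors. In breast epithelium SLIT and ROBO proteins and netrins are known for cell adhesion and branching, and several members, EPHA2 and NRP1 among them, are known for high levels in basal-like breast cancer lines.

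The promoters of SLIT2, ROBO4, ROBO3 and SEMA3E are shown because they belong to a ligand and 2 ROBO receptors that were lower in the knockout libraries, and to the only member called higher by at least 2-fold. Each runs 5′ to 3′ on the strand of its gene, from 250 bases before to 50 bases after the start of transcription in RefSeq (GRCh38.p14), with every CG dinucleotide in capitals.
SLIT2 (chr4:20251655-20251954, plus strand): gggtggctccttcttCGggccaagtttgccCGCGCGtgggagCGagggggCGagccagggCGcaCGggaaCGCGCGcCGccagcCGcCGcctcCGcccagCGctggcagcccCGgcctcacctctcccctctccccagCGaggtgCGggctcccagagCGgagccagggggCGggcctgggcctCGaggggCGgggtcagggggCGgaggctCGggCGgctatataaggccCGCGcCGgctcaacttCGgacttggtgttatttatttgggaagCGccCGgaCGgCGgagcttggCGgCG
ROBO4 (chr11:124897816-124898115, minus strand): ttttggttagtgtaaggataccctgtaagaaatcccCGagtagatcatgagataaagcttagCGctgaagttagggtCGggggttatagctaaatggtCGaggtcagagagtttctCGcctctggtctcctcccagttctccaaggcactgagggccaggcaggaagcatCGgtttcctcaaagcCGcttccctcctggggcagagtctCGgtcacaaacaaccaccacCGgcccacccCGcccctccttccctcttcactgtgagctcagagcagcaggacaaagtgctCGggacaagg
ROBO3 (chr11:124865182-124865481, plus strand): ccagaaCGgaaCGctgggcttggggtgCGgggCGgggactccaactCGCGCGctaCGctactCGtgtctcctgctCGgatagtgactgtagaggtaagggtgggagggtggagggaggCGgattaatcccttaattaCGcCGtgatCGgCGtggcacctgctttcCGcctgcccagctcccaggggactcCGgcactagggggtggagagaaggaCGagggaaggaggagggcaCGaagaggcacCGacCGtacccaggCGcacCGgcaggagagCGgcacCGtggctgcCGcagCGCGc
SEMA3E (chr7:83649090-83649389, minus strand): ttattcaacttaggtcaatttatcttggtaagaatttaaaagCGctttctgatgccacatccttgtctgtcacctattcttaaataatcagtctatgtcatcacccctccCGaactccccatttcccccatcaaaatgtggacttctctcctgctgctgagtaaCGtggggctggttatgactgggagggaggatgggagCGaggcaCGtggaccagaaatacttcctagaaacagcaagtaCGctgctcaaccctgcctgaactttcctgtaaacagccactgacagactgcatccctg
The SLIT2 window held 36 CG dinucleotides, the ROBO3 window 28, the ROBO4 window 11 and the SEMA3E window 6, against a median of 14 over the 35116 promoters of the same length. RefSeq and the gene annotation used here place the start of ROBO3 46 bases apart and that of SEMA3E 26 bases apart. For SLIT2 the distance was 1355 bases and for ROBO4 it was 635 bases, so those 2 windows each show only 1 of the annotated starts.

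KMT2C, the targeted gene, had 1519, 1659.9 and 1339 normalized counts in the knockout libraries, against 1367, 1379 and 1255 in the control libraries. It was not called at the threshold of 0.05, with a log2 fold change of 0.17 (SE 0.10, adjusted p = 0.205 by limma), which was -0.039 (SE 0.071, adjusted p = 0.782 by limma) after the trend removal described below, so its total read count does not separate the groups and knockout refers to the label throughout. Of the 10 markers listed for MDA-MB-231 or mesenchymal breast cancer cells all 10 had rows, with AXL the highest, and their summed level was 182589 to 191024 normalized counts in knockout and 186971 to 193786 in control libraries. Of 10 luminal markers 7 had rows, KRT8 the highest, and summed to 86200 to 98228 in knockout and 97628 to 107771 in control libraries, with overlap, while ESR1, PGR and FOXA1 had no row among those analysed here. Neuronal markers (6 of 12 with rows) summed to 291 to 326 in knockout and 271 to 339 in control libraries. Summed levels were lower in every knockout library than in any control library for endothelial markers (3 of 8 with rows; 166 to 207 against 222 to 292), fibroblast markers (4 of 8; 1012 to 1105 against 1732 to 1908) and leukocyte markers (5 of 8; 437 to 557 against 582 to 907). In bulk RNA, fewer cells of a type and less RNA per cell cannot be told apart.

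In the knockout libraries 10 of 22 tested receptors, 5 of them plexins, were lower. SLIT2, ROBO4, FLRT2 and ROBO3 had the largest called decreases, and SEMA3A, SEMA3C, SEMA3E and PLXNC1 were higher. Of the 53 members with a mean of at least 10 normalized counts, 4 were called higher and 16 lower by limma at an adjusted p under 0.05, which is 7.55% and 30.2% of them. Over all 14618 genes tested, 33.2% were called, 18.9% higher and 14.4% lower. The share of members called lower was thus above the background and the share called higher below it. This background does not take account of the GC content of the transcripts, described below. Among transcripts of 55% to 70% GC, 11 of 31 members were called lower, near the 36.5% of all genes in that band. In the bands of 30% to 45% and 45% to 55% GC, 2 of 11 and 3 of 11 members were, against 0.82% and 10.0% of all genes. Receptors gave 1 call higher and 10 lower of 22 tested, with a median log2 fold change of -0.27, and ligands 3 higher and 6 lower of 31, with a median of -0.040. After trend removal receptors gave 0 higher and 4 lower, 1 of these a plexin, with a median of -0.089. Ligands then gave 0 higher and 3 lower, with a median of 0.033. The median over all genes was -0.017 as deposited and -0.018 after trend removal. Changes were small: SEMA3E was the only called member of at least 2-fold, a size that 1.01% of all genes reached with a call. EFNA2, EPHB1 and NTN3 stayed below the mean of 10 and were not tested.

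**Figure D1:**
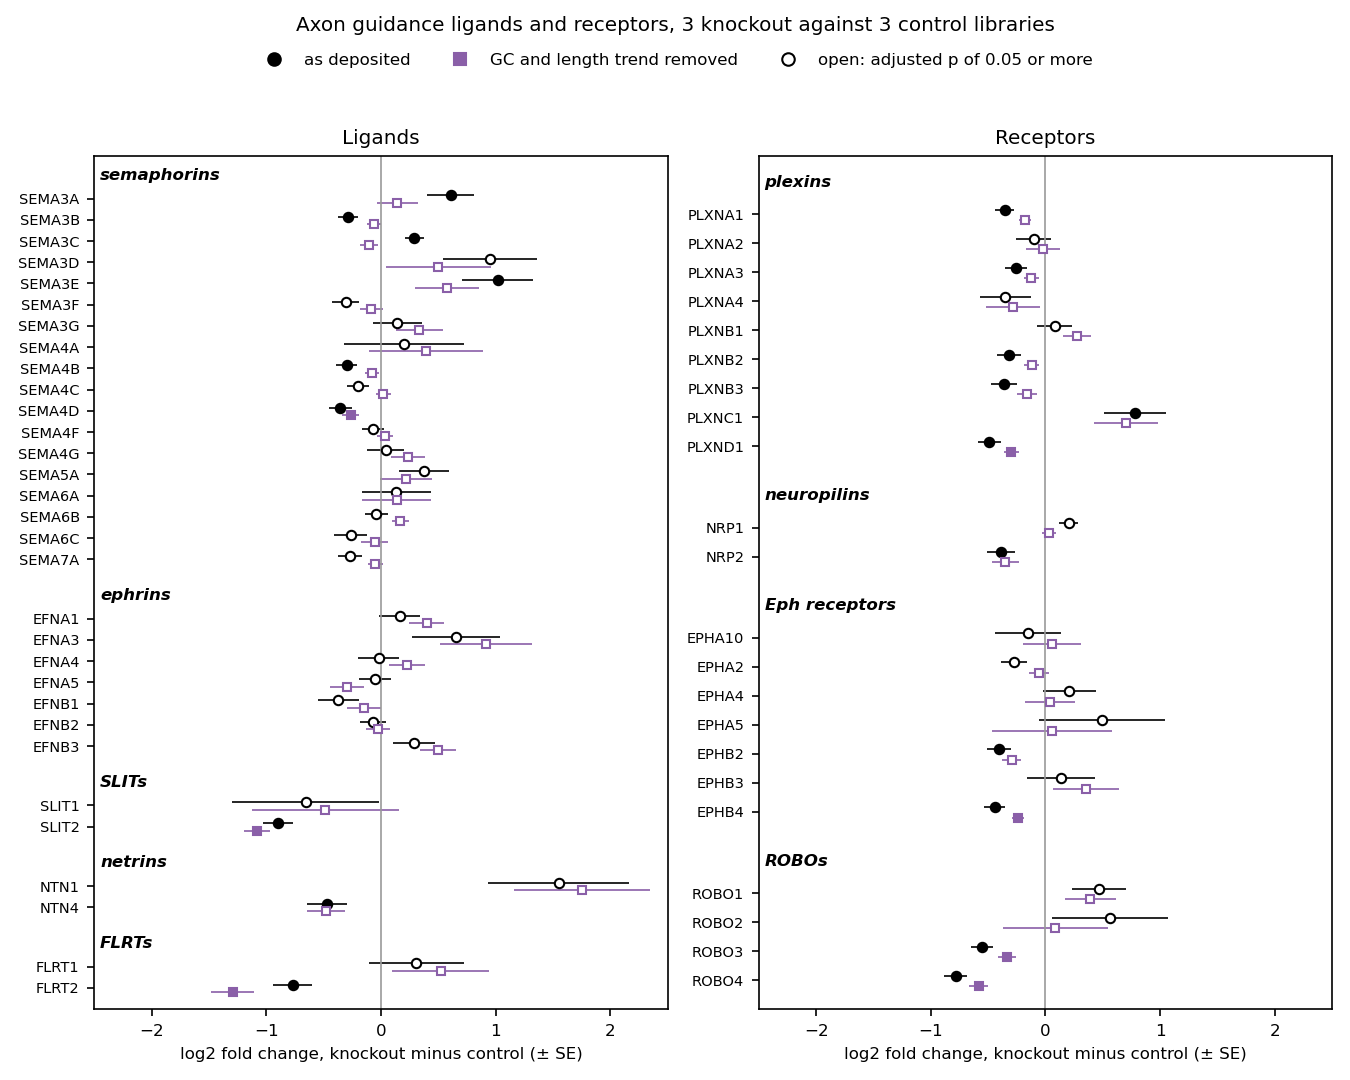
Log2 fold change (knockout minus control) of the 53 tested members, ligands on the left and receptors on the right, grouped by family, with bars of 1 SE of limma; circles are the deposited values and squares the values after removal of the GC and length trend, filled where the adjusted p was under 0.05. Filled circles number 4 on the higher and 16 on the lower side, and filled squares 0 and 7.

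These counts rested on few libraries. Leaving out knockout replicate 1 gave 0 members higher and 7 lower, and leaving out knockout replicate 2 gave 0 and 9. Without control replicate 2 there were 4 higher calls (EFNA3, NRP1, PLXNC1 and SEMA3E) and 10 lower. Without control replicate 3 there were 3 higher calls (SEMA3C, SEMA3D and SEMA3E) and 11 lower, so the genes called higher changed. Calls over all genes were also fewer in these 4 fits, at 2143, 2499, 3680 and 3154, against 4859 with every library. They were not fewer without knockout replicate 3 (4 members higher, 17 lower and 4927 genes) or without control replicate 1 (4, 21 and 6168). Without knockout replicate 3 the higher members included NTN1 in place of PLXNC1. The calls of 7 members held in all 6 of these fits: SLIT2, FLRT2, ROBO3, ROBO4, PLXNA1, PLXND1 and EPHB4. Groups did not overlap for 6 members on the higher side and 16 on the lower side (11.3% and 30.2%), against 23.9% and 22.4% of all genes. The authors' deposited table has 18 members lower and 4 higher of the 47 that have an adjusted p, against 17.4% and 21.1% of all genes with one, and all 20 members called by limma were among them.

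Base composition moved with the fold change. Across all 14598 genes with a known transcript, log2 fold change fell with the GC content of the longest transcript (Spearman correlation of -0.67, a description across genes that share the 6 libraries), and across the 53 members it was -0.36. The members are GC-rich, with a median of 58.4% against 48.5% over all tested genes. The 4 members called higher had a GC content of 36.7% to 46.9%, and 13 of the 16 called lower lay above 50%. Within the band of 55% to 70% GC, 0 of 31 members were called higher and 11 lower, with a median log2 fold change of -0.26, and the 4242 genes of that band had a median of -0.24 with 36.5% called lower. Within 30% to 45% GC, 3 of 11 members were higher and 2 lower with a median of 0.29, where the 5354 genes of the band had a median of 0.33, 46.9% called higher and 0.82% called lower.

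After the trend of each library along GC content and transcript length was removed, 0 members were called higher and 7 lower by limma (13.2%), against 4.08% and 5.95% of 14598 genes (10.0% in either direction). The 7 were SLIT2, FLRT2, ROBO4, ROBO3, PLXND1, EPHB4 and SEMA4D, all of them also called lower as deposited. At an unadjusted p under 0.05, 7 members were higher and 11 lower after trend removal (13.2% and 20.8%), against 11.1% and 14.4% of all genes. The tools run on recovered reads without trend removal called 5 members higher and 18 lower by edgeR, against 18.3% and 15.3% of all genes, and 5 higher and 19 lower by DESeq2, against 19.6% and 16.0%. The number of lower calls after trend removal was 3 without knockout replicate 1, 3 without knockout replicate 2, 4 without control replicate 2 and 17 without control replicate 1, in fits that called 379, 415, 732 and 3600 of all genes. The higher calls then stayed at 0 without any one knockout library, and were 2 (PLXNC1 and SEMA6B) without control replicate 1, 1 (EFNA3) without control replicate 2 and 1 (EFNB3) without control replicate 3. SLIT2, FLRT2 and ROBO4 were called lower in all 6 of these fits.

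**Figure D2:**
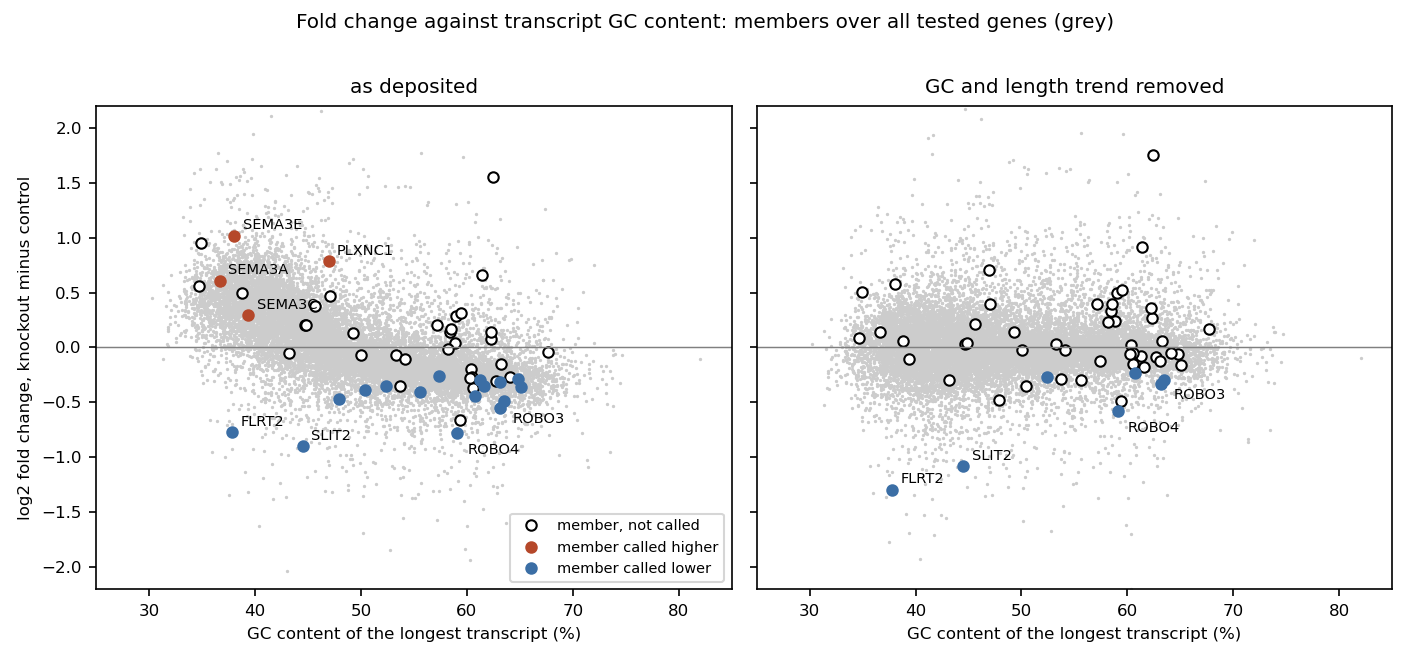
Log2 fold change (knockout minus control) against GC content of the longest transcript in percent, for all 14598 genes (grey) and the 53 tested members (circles), as deposited on the left and with the GC and length trend removed on the right. As deposited the members called higher sit at 36.7% to 46.9% GC inside a falling cloud, and SLIT2 and FLRT2 lie at low values in both panels. Outside the axis fall 5 genes on the left and 3 on the right, none of them a member.

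The SLIT and ROBO families held 3 of the 4 largest called decreases. SLIT2, the secreted repellent that binds ROBO1 and ROBO2 (chr4:20253260-20620561 on GRCh38, plus strand), had 287, 270.3 and 294 normalized counts in the knockout libraries, against 581, 485 and 525 in the control libraries. All 3 knockout libraries lay below all 3 control libraries, at 53.5% of the control mean. Its log2 fold change was -0.90 (SE 0.13, adjusted p = 0.000116 by limma) as deposited and -1.08 (SE 0.11, adjusted p = 0.000716 by limma) after trend removal, and it lay between -0.83 and -1.16 over the 12 fits that each left out 1 library. SLIT1, a second SLIT ligand, was near the floor with 5.28, 5.32 and 12.8 normalized counts in the knockout libraries, against 23.7, 4.30 and 15.5 in the control libraries, and its groups overlapped.

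ROBO4, a receptor best known from endothelium (chr11:124883691-124898500, minus strand), had 1311, 1266 and 1397 normalized counts in the knockout libraries, against 1974, 2491 and 2402 in the control libraries. Every knockout library was lower than every control library, at 57.9% of the control mean, and the log2 fold change was -0.78 (SE 0.10, adjusted p = 5.49e-05 by limma) and -0.58 (SE 0.081, adjusted p = 0.00203 by limma) after trend removal. ROBO3, known for its part in midline crossing of commissural axons (chr11:124865386-124881470, plus strand), had 1019, 1172 and 1184 normalized counts in the knockout libraries, against 1659, 1684 and 1607 in the control libraries. The groups did not overlap, the log2 fold change was -0.56 (SE 0.10, adjusted p = 0.000532 by limma), and after trend removal it was -0.34 (SE 0.077, adjusted p = 0.0192 by limma). That last call was lost when any one of the 3 knockout libraries or control replicate 2 was left out, with adjusted p-values of 0.0606 to 0.0938. The 2 genes lie tail to tail on chromosome 11 with 2220 bases between their annotated ends. Whether reads were counted by strand is not given.

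ROBO1 and ROBO2, the SLIT receptors best known from the nervous system, were not called. ROBO1 had 69.7, 108 and 110.1 normalized counts in the knockout libraries, against 73.3, 64.4 and 65.7 in the control libraries, a log2 fold change of 0.47 (SE 0.24, adjusted p = 0.139 by limma). Knockout replicate 1 lay within the control range and the other knockout libraries above it. ROBO2 was low, with 16.9, 13.3 and 12.8 normalized counts in the knockout libraries, against 6.46, 10.7 and 11.6 in the control libraries, and although these groups did not overlap it was not called, at 0.56 (SE 0.50, adjusted p = 0.412 by limma) on the log2 scale. Of the 2 endothelial markers tested, 1 was called lower. KDR, the main VEGF receptor of endothelium, had 109.9, 117 and 116 normalized counts in the knockout libraries, against 209, 153 and 185 in the control libraries, and fell by 0.66 on the log2 scale (SE 0.18, limma adjusted p = 0.0117). PECAM1 had 68.7, 43.4 and 89.9 normalized counts in the knockout libraries, against 74.3, 50.5 and 94.7 in the control libraries, with overlapping groups and a log2 fold change of -0.13 (SE 0.30, adjusted p = 0.761 by limma). VWF, below the mean needed for a test, averaged 3.09 normalized counts in knockout and 11.2 in control libraries, and CDH5, TEK, TIE1, CLDN5 and EMCN had no row among those analysed here. Their part in the ROBO4 result was not tested.

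FLRT2, a transmembrane ligand of UNC5 receptors and latrophilins (chr14:85530144-85654426, plus strand), had 134, 199 and 186 normalized counts in the knockout libraries, against 268, 307 and 301 in the control libraries. All knockout libraries were below all control libraries, at 59.2% of the control mean. The log2 fold change was -0.77 (SE 0.17, adjusted p = 0.00290 by limma), and -1.29 (SE 0.19, adjusted p = 0.00221 by limma) after trend removal. Only 3 tested genes have a longer transcript than the 33679 bases annotated for FLRT2, so few genes set the length trend at that end. With GC content alone the trend-removed value was -1.19, and with the median transcript it was -1.07. FLRT2 and SLIT2 have a GC content of 37.8% and 44.5%, in the range where most called genes were higher. FLRT1 had 30.6, 24.8 and 19.3 normalized counts in the knockout libraries, against 24.8, 25.8 and 11.6 in the control libraries, and its groups overlapped. FLRT1 overlaps MACROD1 on the opposite strand, whose mean over all libraries was 3421 normalized counts where that of FLRT1 was 22.8. Of the 4 fibroblast markers tested, 3 were called lower as deposited and 1, COL1A2, after trend removal. COL1A2, a chain of type I collagen, had 256, 241 and 319 normalized counts in the knockout libraries, against 675, 695 and 745 in the control libraries, a log2 fold change of -1.38 (SE 0.13, adjusted p = 1.36e-05 by limma), and -1.70 (SE 0.14, adjusted p = 0.000446 by limma) after trend removal. The other changes as deposited were -0.55 for COL1A1 and -0.48 for PDGFRB (limma adjusted p = 0.0273 and 0.00456), while COL3A1 had -0.13 (adjusted p = 0.734). DCN, LUM, PDGFRA and THY1 had no row among those analysed here. The part of these markers in the SLIT2 and FLRT2 results was not tested.

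**Figure D3:**
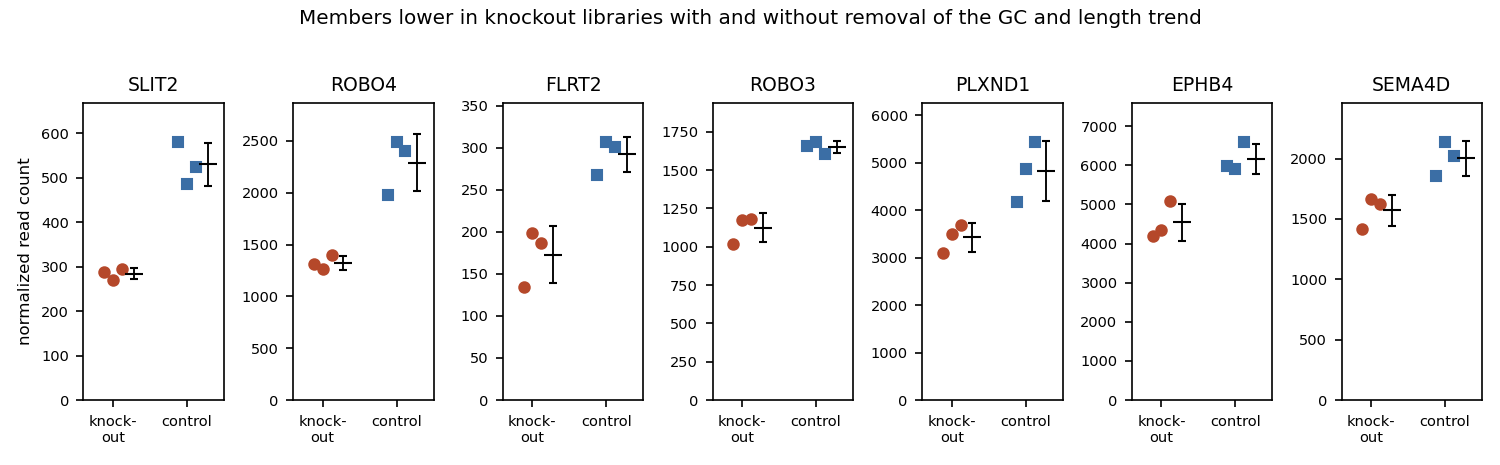
Normalized read count per library (linear axes from 0) of the 7 members called lower both as deposited and after trend removal; circles are knockout and squares control libraries, and the dash with its bar is the mean ± SD of 3 libraries. In each panel the 3 knockout libraries sit below the 3 control libraries, with SLIT2 at 270.3 to 294 against 485 to 581.

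Netrins, laminin-related secreted cues, were a small group here. NTN4, a basement membrane netrin and the most abundant of the 3 (chr12:95657807-95791152, minus strand), had 175, 157 and 145 normalized counts in the knockout libraries, against 185, 216 and 267 in the control libraries. The groups did not overlap and it was called lower, with a log2 fold change of -0.47 (SE 0.18, adjusted p = 0.0472 by limma). The call was lost after trend removal, at -0.48 (SE 0.17, adjusted p = 0.0975 by limma), and in 5 of the 6 fits that left out a library. NTN1, the classical chemoattractant, had 22.2, 17.7 and 9.18 normalized counts in the knockout libraries, against 2.15, 5.37 and 7.73 in the control libraries. All knockout values lay above the control values, but it missed the threshold at 1.55 (SE 0.61, adjusted p = 0.0586 by limma) on the log2 scale, and the gene is near the floor of the assay. On recovered reads edgeR called NTN1 higher and DESeq2 did not.

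The 7 class 3 semaphorins, secreted ligands of neuropilin and plexin complexes, split by gene. SEMA3E, which binds PLXND1 without a neuropilin, had 65.5, 64.7 and 40.4 normalized counts in the knockout libraries, against 28.01, 25.8 and 27.0 in the control libraries. Its groups did not overlap, its log2 fold change was 1.02 (SE 0.31, adjusted p = 0.0189 by limma), and knockout replicate 3 stood between the other 2 knockout libraries and the controls. SEMA3A, the prototype collapsin, had 237, 189 and 150.5 normalized counts in the knockout libraries, against 153, 115 and 107 in the control libraries. Control replicate 1 lay above the lowest knockout library, and the log2 fold change was 0.61 (SE 0.20, adjusted p = 0.0294 by limma). SEMA3C, the highest of the 3 per kilobase, had 4439, 4323 and 3960.1 normalized counts in the knockout libraries, against 3247, 3414 and 3726 in the control libraries, with no overlap and a log2 fold change of 0.29 (SE 0.086, adjusted p = 0.0155 by limma).

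None of these 3 calls held after trend removal, where the values were 0.57 for SEMA3E (SE 0.28, limma adjusted p = 0.220), 0.14 for SEMA3A (SE 0.18, adjusted p = 0.664) and -0.10 for SEMA3C (SE 0.081, adjusted p = 0.461). The sign of SEMA3C thus turned, though with the median transcript in place of the longest it was 0.16 (adjusted p = 0.195), and without control replicate 1 trend removal called it lower, at -0.18 (adjusted p = 0.0231). As deposited, all 3 calls were lost without knockout replicate 1 and without knockout replicate 2. SEMA3A, SEMA3D and SEMA3E lie in a row on chromosome 7, with 307 kb between SEMA3E and SEMA3A and 503 kb between SEMA3A and SEMA3D. SEMA3D had 50.7, 44.3 and 53.2 normalized counts in the knockout libraries, against 21.5, 12.9 and 55.1 in the control libraries, so control replicate 3 exceeded every knockout library, and its log2 fold change was 0.95 (SE 0.41, adjusted p = 0.0822 by limma).

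Of the class 3 semaphorins with a GC content above 55%, SEMA3B alone was called by limma, and it was lower. SEMA3B, a ligand known as a tumour suppressor candidate of chromosome 3p, had 3422, 3423 and 3877 normalized counts in the knockout libraries, against 4412, 4159.6 and 4486 in the control libraries. The groups did not overlap and it was called lower at -0.29 (SE 0.084, adjusted p = 0.0159 by limma), but its value after trend removal was -0.057 (SE 0.060, adjusted p = 0.602 by limma). SEMA3F, its neighbour 78.5 kb away, had 385, 429 and 427 normalized counts in the knockout libraries, against 527, 483 and 525 in the control libraries, with no overlap, and its log2 fold change of -0.31 (SE 0.12, adjusted p = 0.0585 by limma) was not called. DESeq2 on recovered reads and the authors' deposited table called SEMA3F lower, and edgeR did not. SEMA3G had overlapping groups, with a log2 fold change of 0.14 (SE 0.21, adjusted p = 0.633 by limma).

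**Figure D4:**
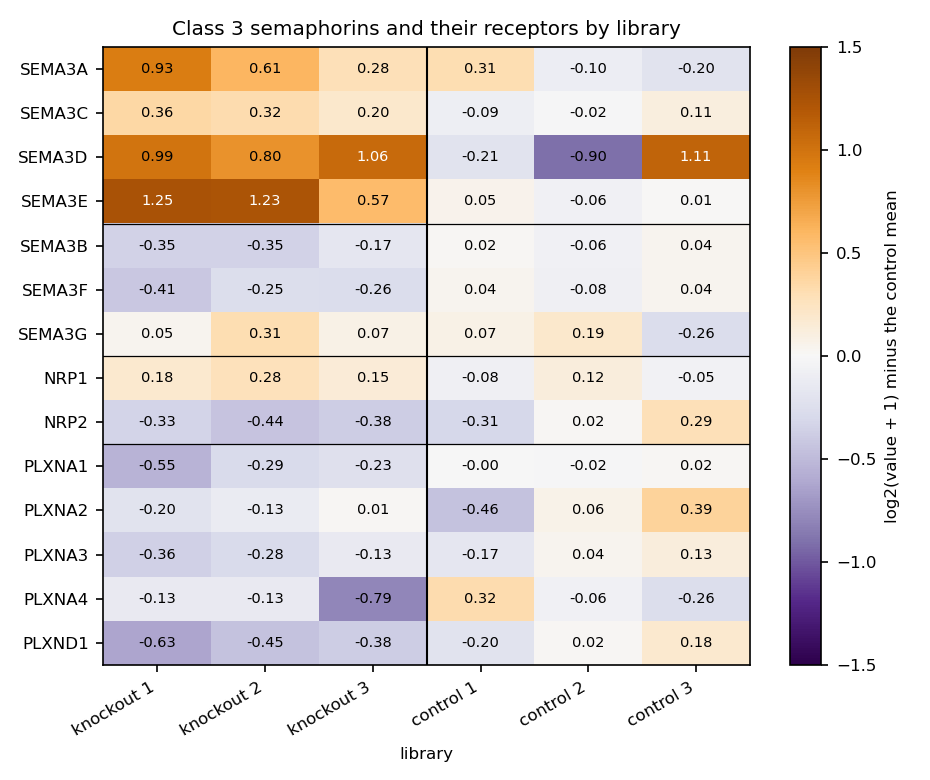
Log2(value + 1) of the class 3 semaphorins, the neuropilins, the A-type plexins and PLXND1 in each library, minus the mean of the 3 control libraries; knockout libraries are on the left and control libraries on the right. SEMA3E is highest in knockout replicates 1 and 2 (1.25 and 1.23), SEMA3D varies most among the control libraries, and PLXND1 and PLXNA1 are below the control mean in all 3 knockout libraries.

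Of the co-receptors of class 3 semaphorins, NRP2 was called lower by limma and NRP1 was not called. NRP2, which also binds VEGF-C (chr2:205681990-205798133, plus strand), had 1235, 1148 and 1192 normalized counts in the knockout libraries, against 1254, 1577 and 1902 in the control libraries. The knockout libraries lay close together below a wide control range, and the log2 fold change was -0.38 (SE 0.12, adjusted p = 0.0235 by limma). It was lost after trend removal at -0.35 (SE 0.12, adjusted p = 0.0857 by limma) and in 4 of 6 fits that left out a library. NRP1, the SEMA3A and VEGF-A co-receptor and the more abundant of the pair, had 8673, 9283 and 8452 normalized counts in the knockout libraries, against 7249.8, 8324 and 7394 in the control libraries. All knockout values were above all control values, but no call was made at 0.20 (SE 0.081, adjusted p = 0.0625 by limma) on the log2 scale, and after trend removal it was 0.031 (SE 0.061, adjusted p = 0.796 by limma). DESeq2 on recovered reads called NRP1 higher, while edgeR and the authors' deposited table did not. Per kilobase of transcript NRP2 made up 10.7% ± 0.74 of the neuropilin level in knockout and 15.4% ± 2.8 in control libraries (SD, n = 3 each).

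Among the 9 plexins, the semaphorin receptors with an intracellular GTPase-activating domain, 1 was called higher and 5 lower (11.1% and 55.6%). Over all genes these shares were 18.9% and 14.4%. The 5 lower plexins have a GC content of 57.4% to 65.1%, and 36.5% of all genes of 55% to 70% GC were called lower. After trend removal 0 plexins were higher and 1 lower (11.1%), against 4.08% and 5.95% of all genes. PLXND1, the receptor of SEMA3E (chr3:129555175-129606818, minus strand), had 3096, 3501 and 3679 normalized counts in the knockout libraries, against 4167, 4864 and 5440.2 in the control libraries. Its groups did not overlap, and the log2 fold change was -0.49 (SE 0.10, adjusted p = 0.00162 by limma) as deposited and -0.30 (SE 0.064, adjusted p = 0.0153 by limma) after trend removal. PLXND1 after trend removal was called in 1 of 6 fits that left out a library, the one without control replicate 1, and its adjusted p in the others was 0.0510 to 0.0791. PLXNA1, an A-type plexin and the one with the most reads, had 18113, 21638 and 22533 normalized counts in the knockout libraries, against 26420.4, 26093 and 26795 in the control libraries, with no overlap and a log2 fold change of -0.35 (SE 0.085, adjusted p = 0.00504 by limma). Its trend-removed value was -0.18 (SE 0.053, adjusted p = 0.0556 by limma).

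The other 3 lower plexins were PLXNB2, PLXNB3 and PLXNA3. PLXNB2, a receptor of class 4 semaphorins, had 13895, 15649 and 17331 normalized counts in the knockout libraries, against 16618, 19568 and 22471 in the control libraries, and its knockout replicate 3 exceeded control replicate 1. PLXNB3, a receptor of SEMA5A, had 869, 966 and 1164 normalized counts in the knockout libraries, against 1376, 1198 and 1252 in the control libraries, without overlap. PLXNA3 had 2565, 2699 and 2998 normalized counts in the knockout libraries, against 2917, 3386 and 3585 in the control libraries, with 1 control library inside the knockout range. Their log2 fold changes of -0.32 (SE 0.10, limma adjusted p = 0.0244), -0.36 (SE 0.11, adjusted p = 0.0232) and -0.26 (SE 0.10, adjusted p = 0.0462) were -0.12, -0.16 and -0.12 after trend removal, with adjusted p-values of 0.286, 0.287 and 0.279. PLXNA3 overlaps LAGE3 on the opposite strand and PLXNB3 overlaps SRPK3 on the same strand; the strand setting of the counting is not given in the sources used here, and such genes may share reads.

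PLXNC1, the receptor of SEMA7A (chr12:94148723-94307675, plus strand), had 115, 136 and 149.6 normalized counts in the knockout libraries, against 111, 89.1 and 45.4 in the control libraries. The groups did not overlap, though knockout replicate 1 and control replicate 1 lay close together. The log2 fold change was 0.78 (SE 0.27, adjusted p = 0.0337 by limma), and 0.70 (SE 0.28, adjusted p = 0.140 by limma) after trend removal. Leaving out control replicate 3, the lowest library, gave 0.41 with an adjusted p of 0.194, and leaving out any one of the 3 knockout libraries also ended the call. PLXNC1 overlaps CEP83 on the opposite strand, whose mean over all libraries was 282 normalized counts where that of PLXNC1 was 108. PLXNA2, PLXNA4 and PLXNB1 overlapped between groups, with log2 fold changes of -0.10 (SE 0.15), -0.35 (SE 0.22) and 0.081 (SE 0.15). Of the 4 leukocyte markers tested, CD14 was called lower as deposited, at -0.69 (SE 0.24, adjusted p = 0.0325 by limma) with control replicate 1 below every knockout library. PTPRC, CD3E and ITGAM were not called as deposited, with log2 fold changes of -0.33, -1.12 and -0.53 (limma adjusted p = 0.108, 0.0638 and 0.323). After trend removal PTPRC was the one called. Their part in the PLXNC1 result was not tested.

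Semaphorins of classes 4 to 7, which stay on the membrane until shed, gave 2 lower calls and no higher call among 11. Of all genes 14.4% were called lower and 18.9% higher, and 2 of 11 is near the first of these shares. SEMA4D, a ligand of PLXNB1 also known from leukocytes (chr9:89360787-89498130, minus strand), had 1421, 1663 and 1628 normalized counts in the knockout libraries, against 1853, 2139 and 2019.8 in the control libraries. The groups did not overlap. The log2 fold change was -0.35 (SE 0.10, adjusted p = 0.0112 by limma) and, after trend removal, -0.26 (SE 0.072, adjusted p = 0.0398 by limma), a call lost with GC content alone (adjusted p = 0.0795), with the median transcript (adjusted p = 0.106) and in 5 of 6 fits that left out a library. SEMA4B had 3681, 4075 and 4246 normalized counts in the knockout libraries, against 4403, 5075 and 5298 in the control libraries, with no overlap. It was called lower at -0.30 (SE 0.090, adjusted p = 0.0186 by limma), and -0.076 (SE 0.058, adjusted p = 0.456 by limma) after trend removal.

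SEMA6B, the most abundant semaphorin, had 6314, 7994 and 8872 normalized counts in the knockout libraries, against 8309, 7778 and 7533 in the control libraries, and its groups overlapped. The log2 fold change was -0.040 (SE 0.10, adjusted p = 0.791 by limma) as deposited and 0.17 (SE 0.078, adjusted p = 0.194 by limma) after trend removal, so its sign depended on that step. SEMA7A, the lipid-anchored ligand of PLXNC1, had 1053, 1138 and 1263 normalized counts in the knockout libraries, against 1342, 1316 and 1504 in the control libraries, with no overlap and a log2 fold change of -0.27 (SE 0.10, adjusted p = 0.0506 by limma), just outside the threshold. Both edgeR and DESeq2 on recovered reads called SEMA7A lower, as did the authors' deposited table. The other 7 (SEMA4A, SEMA4C, SEMA4F, SEMA4G, SEMA5A, SEMA6A and SEMA6C) had overlapping groups and log2 fold changes of -0.26 to 0.38. SEMA4G overlaps MRPL43 on the opposite strand, with means over all libraries of 237 and 4192 normalized counts.

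Ephrins gave no call among 7 tested, and Eph receptors gave 2 lower calls (28.6%) and no higher call among 7. Of all genes 14.4% were called lower and 18.9% higher. Both called Eph receptors lie in the band of 55% to 70% GC, where 36.5% of all genes were called lower. EPHB4, the receptor of EFNB2 (chr7:100802565-100827521, minus strand), had 4194, 4358 and 5086 normalized counts in the knockout libraries, against 5994, 5899 and 6601 in the control libraries. No knockout library reached the control range, and the log2 fold change was -0.44 (SE 0.089, adjusted p = 0.00143 by limma) as deposited and -0.24 (SE 0.052, adjusted p = 0.0163 by limma) after trend removal. Its trend-removed call was lost without knockout replicate 1 (adjusted p = 0.0800) and without knockout replicate 2 (adjusted p = 0.106), and part of its locus overlaps SLC12A9 on the opposite strand. EPHB2, a receptor of B-type ephrins (chr1:22710839-22921500, plus strand), had 1853, 2095 and 2442 normalized counts in the knockout libraries, against 3044, 2552 and 2827 in the control libraries. Its groups did not overlap and it was called lower at -0.40 (SE 0.10, adjusted p = 0.00783 by limma), with -0.29 (SE 0.085, adjusted p = 0.0503 by limma) after trend removal. Without knockout replicate 1 the deposited values gave an adjusted p of 0.0664.

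EPHA2, the most abundant Eph receptor, had 24192, 25138 and 28501 normalized counts in the knockout libraries, against 25694, 31150.0 and 38284 in the control libraries, and its groups overlapped because control replicate 1 lay within the knockout range. Its log2 fold change was -0.27 (SE 0.11, adjusted p = 0.0649 by limma), and -0.059 (SE 0.086, adjusted p = 0.722 by limma) after trend removal. Called lower by both edgeR and DESeq2 on recovered reads, EPHA2 was not called by the authors' deposited table, in which its adjusted p was 0.0511. EPHA4, EPHA5, EPHA10 and EPHB3 had overlapping groups and log2 fold changes of -0.15 to 0.50. EPHA5 overlaps the pseudogene AC115223.1 on the opposite strand, with means over all libraries of 13.9 and 687 normalized counts. EPHB1 averaged 4.497 ± 2.36 in knockout and 4.16 ± 0.253 in control libraries (SD, n = 3 each) and was not tested.

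Of the ephrins, EFNB2 was the most abundant, with 1008, 1239 and 1176 normalized counts in the knockout libraries, against 1324, 1222 and 1039 in the control libraries and overlapping groups. Its log2 fold change was -0.065 (SE 0.11, adjusted p = 0.690 by limma). The other 6 tested ephrins also overlapped between groups, with log2 fold changes of -0.37 for EFNB1 to 0.66 for EFNA3. In EFNA3 the knockout libraries were close together, at 43.3, 47.0 and 48.6 normalized counts, within a wide control range of 15.1, 54.8 and 28.98. EFNA1, EFNA3 and EFNA4 lie together on chromosome 1, with 9.32 kb between EFNA4 and EFNA3 and 39.9 kb between EFNA3 and EFNA1, and none of them was called. EFNA2 averaged 1.91 ± 0.181 in knockout and 3.51 ± 2.54 in control libraries and NTN3 5.59 ± 2.85 in knockout and 3.797 ± 0.535 in control libraries (SD, n = 3 each).

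Levels per kilobase of the longest transcript ranked a few members far above the rest. EPHA2 stood highest, at 6545 ± 571 in knockout and 7999 ± 1593 in control libraries (mean ± SD of normalized reads per kb, n = 3 each). PLXNB2 followed with 2448 ± 269 in knockout and 3063 ± 459 in control libraries, and PLXNA1 with 2290.0 ± 258 in knockout and 2916 ± 38.8 in control libraries. These means overlapped within their SD for PLXNB2 and PLXNA1, so their order was not resolved. Next by mean came SEMA6B with 1938 ± 326 in knockout and 1975 ± 99.4 in control libraries. In the knockout libraries SEMA6B was within SD of PLXNB2 and PLXNA1, and in the control libraries it lay below them. NRP1 with 1497 ± 73.2 in knockout and 1302 ± 99.2 in control libraries and SEMA3B with 1088 ± 79.9 in knockout and 1326 ± 52.1 in control libraries followed, in that order in the knockout libraries and within their SD in the control libraries. SEMA4B, with 1051 ± 76.1 in knockout and 1294 ± 122 in control libraries, was within SD of SEMA3B in both groups and of NRP1 in the control libraries. EPHA2 took 85.1% ± 0.30 of the summed Eph receptor level in knockout and 83.7% ± 2.4 in control libraries. PLXNB2 and PLXNA1 together led the plexins, with 41.7% ± 0.53 and 39.0% ± 0.88 in knockout against 41.2% ± 2.7 and 39.6% ± 3.2 in control libraries. SLIT2 took 97.9% of the SLIT level in either group, and NTN4 88.9% ± 3.4 of the netrin level in knockout against 95.7% ± 0.58 in control libraries.

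**Figure D5:**
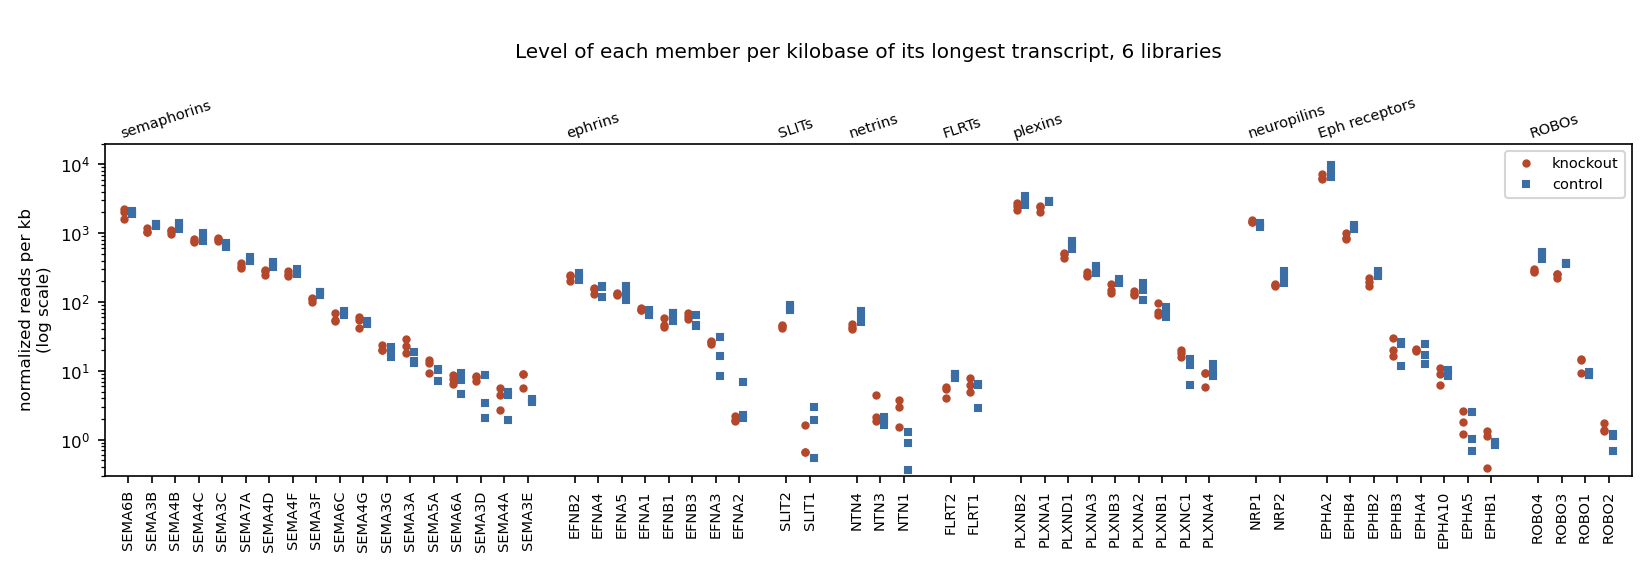
Normalized reads per kilobase of the longest transcript (log axis) for all 56 members, ordered within each family; circles are the 3 knockout and squares the 3 control libraries. EPHA2, PLXNB2 and PLXNA1 have the highest means and EPHB1, EPHA5, SLIT1, NTN1 and ROBO2 are among the lowest, where the libraries scatter most.

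Other genes of the guidance pathways were listed as 71 receptors, adaptors, GTPase regulators, kinases and cytoskeletal effectors, of which 60 had rows and 58 were tested. Of these, 11 were higher and 11 lower by limma (19.0% each), with a median log2 fold change of -0.013, near the background of 18.9% and 14.4%. After trend removal 7 were higher and 6 lower (12.1% and 10.3%), against 4.08% and 5.95% of all genes. Without knockout replicate 1 the deposited values gave 8 higher and 2 lower, without knockout replicate 2 they gave 9 and 2, without control replicate 2 they gave 10 and 6, and without control replicate 3 they gave 11 and 5. After trend removal the higher and lower effectors numbered 2 and 0 without knockout replicate 1, 1 and 1 without knockout replicate 2, 4 and 3 without knockout replicate 3, 10 and 9 without control replicate 1, 2 and 3 without control replicate 2, and 2 and 4 without control replicate 3. Those 6 fits called 379, 415, 604, 3600, 732 and 886 of all genes.

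NEO1, neogenin, a receptor of netrins and repulsive guidance molecules, had 361, 378 and 442 normalized counts in the knockout libraries, against 164, 199.8 and 203 in the control libraries. The groups did not overlap, and the log2 fold change was 1.06 (SE 0.15, adjusted p = 0.000106 by limma) as deposited and 1.05 (SE 0.14, adjusted p = 0.00151 by limma) after trend removal. ROCK2 and ROCK1, kinases that act below plexins and Eph receptors on actomyosin, were higher too. ROCK2 had 3462, 3859 and 2945 normalized counts in the knockout libraries, against 2161, 1916 and 1767 in the control libraries, and ROCK1 had 4708, 4794 and 4411 normalized counts in the knockout libraries, against 3376, 3156 and 2739 in the control libraries. Neither overlapped between groups. Their log2 fold changes were 0.81 (SE 0.11, adjusted p = 5.49e-05 by limma) and 0.59 (SE 0.090, adjusted p = 0.000180 by limma), and after trend removal 0.40 and 0.19 (adjusted p = 0.00673 and 0.0494). The trend-removed value of ROCK1 was no longer called with the median transcript (adjusted p = 0.148) or in 5 of 6 fits that left out a library, and that of ROCK2 was not called without knockout replicate 2 (adjusted p = 0.0501).

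LIMK1, the kinase that phosphorylates cofilin, had 7521, 8347 and 9573 normalized counts in the knockout libraries, against 11731, 10643 and 12536 in the control libraries. It was lower without overlap, at -0.46 (SE 0.093, adjusted p = 0.00145 by limma), and at -0.31 (SE 0.069, adjusted p = 0.0165 by limma) after trend removal, a call lost without knockout replicate 1, knockout replicate 2 or control replicate 3 (adjusted p = 0.0502 to 0.104). NGEF, an exchange factor that binds EPHA4 and is known as ephexin, had 681, 719 and 720.3 normalized counts in the knockout libraries, against 1233, 939 and 972 in the control libraries, and PAK4, a CDC42 effector kinase, had 7713, 8539.5 and 10018 normalized counts in the knockout libraries, against 10993, 10139.5 and 11728 in the control libraries. Both genes were without overlap and called lower as deposited, at -0.56 (SE 0.12, adjusted p = 0.00193 by limma) for NGEF and -0.33 (SE 0.094, adjusted p = 0.0133 by limma) for PAK4. After trend removal neither passed, with -0.37 (adjusted p = 0.0651) and -0.14 (adjusted p = 0.167). PAK4 was also lost as deposited without knockout replicate 1 and without knockout replicate 2. DCC, the classical netrin receptor, had no row among those analysed here.

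In RefSeq 48 of the 56 members had a promoter entry, with 76 windows among them. For each member the window nearest the annotated start of the gene was taken, while the 35116 promoters were not reduced in this way. Some windows lie far from that start, at 404185 bases for ROBO2, 197459 for EPHB1, 72218 for PLXNA4 and 66506 for FLRT1. Among members called lower the distance was 24316 bases for SEMA4B, 5958 for PLXNB2 and 5479 for PLXNA1. Such windows may not be the promoters of the transcripts counted here. The median number of CG dinucleotides in the 300 bases was 24 over these members, 30 over the 16 called lower and 6 over the 3 called higher that had an entry, against 14 over all 35116 promoters. The members called lower and higher also differ in the GC content of their transcripts, as given above. CAGGTG, the E-box core bound by SNAI and ZEB proteins, was searched on both strands and stood in 10 of the 48 (20.8%), against 20.6% of all promoters. ROBO3 was the only one of the 4 printed promoters with that match. TGANTCA, the site of AP-1 factors, stood in 1 of 48 (2.08%), that of FLRT1, against 7.71% of all promoters. The ends of these motifs share letters, so that matches can overlap. A match is only a description of the letters.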

How the data were processed

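RNA of 3 knockout and 3 control libraries was measured by sequencing. Tools and genome build per the submitters' processing notes were GRCh38.p13, STAR 2.4.0, featureCounts 1.5.0, FastQC and DESeq2 1.30.1; no source used here gives the annotation release, the filters or the strand setting. The authors deposited, for 15706 genes, normalized read counts per library (a signal: reads divided by a size factor), their mean, a log2 fold change with its standard error, a Wald score and p-values, per the file headers. All rows used here have at least 1 read in each library.

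In every library 100% of the deposited values lay within 0.01 of a whole number of reads after division by the value of 1 read. These recovered reads numbered 41401044, 49514464 and 48111363 in knockout replicates 1 to 3 and 41240265, 42024652 and 48244821 in control replicates 1 to 3. Counting error is part of the spread between replicates, more so in genes with few reads, and its share was not measured.

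In R 4.3.3, limma 3.58.1 was fitted with its trend option to log2(value + 1). Genes with a mean under 10 were left out, so that 14618 were tested, two-sided, with Benjamini-Hochberg adjustment over all genes and a threshold of 0.05. Fold changes on this scale understate the change of low genes. Trend removal subtracted from the gene-centred log2 values of each library natural splines (5 terms each) of GC percent and log2 length of the longest GENCODE 29 transcript, for 14598 genes. As alternatives, edgeR 4.0.16 (quasi-likelihood), which called 4912 genes, and DESeq2 1.42.0, which called 5214, were run on the recovered reads. Further ones were other pseudocounts, filters and scalings, a replicate block, and leaving out each library. The fits were also run on simulated counts that held no trend along GC content or length. That run cannot show how the fits behave where such a trend exists. Coordinates are those of GENCODE 29 on GRCh38. The members and gene lists were chosen with earlier results of these data known, and no list was tested as a set. Per-library values are given for KMT2C, for each called member, for the most abundant member of each family and for up to 3 effectors per direction with the smallest adjusted p. Values of NTN1, ROBO1, ROBO2, SLIT1, FLRT1, SEMA3D, SEMA3F, SEMA7A, EFNA3, KDR, PECAM1 and COL1A2 were added after they were seen.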

Additional observations from a re-analysis of the deposited data

How the results depend on the processing

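Pseudocounts of 0.5 and 5, no filter, a mean of at least 50, TMM factors, edgeR and DESeq2 left every count of calls within 1.5 times of its value; so did quantile normalization, apart from the effectors called lower (7). With trend removal, genes called numbered 1463, with the replicate block 1313, with GC content alone 1400 and with the median transcript 1419, against 4859 as deposited. In these 4 settings members called higher were 0 throughout and members called lower 7, 7, 6 and 6. Effectors called higher were 7, 5, 7 and 5, and effectors called lower 6, 6, 3 and 4. GC content alone and the median transcript were chosen after seeing the data.

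Leaving out 1 library, with and without trend removal, gave 379 to 6168 genes called, 0 to 4 members higher and 3 to 21 lower, and 1 to 14 effectors higher and 0 to 15 lower. Without control replicate 1, trend removal gave 3600 genes, against 379 to 886 without any other library.

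The sign turned for SEMA3C (-0.10 after trend removal with or without the block, -0.098 with GC content alone, but 0.16 with the median transcript, and -0.18 to -6.33e-05 over libraries left out with trend removal, against 0.25 to 0.35 without it) and for KMT2C (-0.039 with or without the block, -0.020 with the median transcript, but 0.042 with GC content alone, and -0.079 to 0.016 over libraries left out with trend removal, against 0.098 to 0.25 without it). For SEMA6B it was 0.17 after trend removal with or without the block, 0.19 with GC content alone and with the median transcript, 0.0064 after quantile normalization and -0.15 to 0.25 over libraries left out. With a library left out it also turned in EPHA2 (-0.42 to 0.044), NRP1 (-0.026 to 0.27) and EFNB2 (-0.16 to 0.061). The cause was not tested.

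Whether the replicate numbers pair the samples was not settled. Deviations of same-numbered libraries correlated at 0.066, 0.0063 and 0.13. Knockout replicates 1 and 3 correlated best with the control replicate of the same number, and knockout replicate 2 with control replicate 1 (0.022). With the replicate block 6265 genes, 4 members higher and 19 lower, and 13 effectors in each direction were called. Without it these were 4859 genes, 4 members higher and 16 lower, and 11 effectors in each direction. The 4 higher members were NRP1, SEMA3A, SEMA3C and SEMA3E with the block, and PLXNC1 stood in place of NRP1 without it.

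Genes without a read in any one library could not be examined, and NTN1, with a mean near 10, missed the threshold although its knockout mean was 3.22-fold its control mean.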
